A study of Rattus norvegicus with 13 samples.

Results

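The genes described here encode glycolytic enzymes. They are the 10 genes Hk1, Hk2, Gpi, Pfkl, Aldoa, Gapdh, Pgk1, Eno1, Pkm and Ldha, followed through every probe set of the array that carries 1 of these symbols alone, without the array's control probe sets. This gave 10 probe sets of 8 genes among 15866 probe sets without controls, and 9 of them, covering all 8 genes, were bright enough to be tested among 11106. Gapdh and Pkm had no such probe set, because their probe sets are annotated with a second symbol as well, so those are given apart.

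Rat kidney glomeruli, the knots of capillaries in which urine filtration begins, were measured on 13 one-colour arrays with RNA of untreated Lewis-Hsd rats aged 18 weeks on a regular diet. Per the labels' protocols, 2 groups of samples, titled LCM 20 (n = 4) and LCM 800 (n = 5), were obtained by laser capture microdissection of frozen tissue sections, followed by amplification of the RNA in 2 rounds. The third group, titled iron (n = 4), came from kidneys perfused with iron oxide particles, whose glomeruli were collected with a magnet and a sieve and whose RNA was not amplified. The comparison asks how far the way of isolating glomeruli changes the expression profile. Amplification and microdissection go together in these groups, so their effects cannot be told apart. The same protocol, with about 800 glomerular cross-sections, is given for both microdissected groups, and the meaning of the title number 20 is not stated. The series describes paired kidneys, but no label ties a replicate number to a rat, and the samples of a group are only called biological replicates. Normal and anti-Thy1.1 rats are both named in the iron protocol, while the other labels give untreated samples, and an embryo description attached to all samples contradicts the rest.

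Glycolysis splits glucose into pyruvate in the cytosol and yields ATP. Hexokinases trap glucose as glucose 6-phosphate, phosphofructokinase sets the pace, aldolase splits the sugar, and the later enzymes harvest ATP before lactate dehydrogenase turns pyruvate into lactate. Most glycolytic genes are known targets of the hypoxia-inducible factors. In the kidney, proximal tubule cells rely mainly on oxidation of fatty acids and other fuels and make glucose rather than burn it, while glomerular cells are known to use glycolysis.

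The promoters of the 4 genes that were lower in LCM 800 than in iron glomeruli are shown. Hypoxia-inducible factors are known to bind sites with core letters such as ACGTG. Only this form was searched, so a window without a match may hold another form. The windows are RefSeq sequences of build GRCr8 that run from 250 bases before to 50 bases after the annotated transcript start, 5′ to 3′ on the gene's strand. Capitals mark ACGTG or its reverse complement CACGT, and where both overlap they form the palindrome CACGTG.
Gpi (chr1:95993212-95993511, minus strand): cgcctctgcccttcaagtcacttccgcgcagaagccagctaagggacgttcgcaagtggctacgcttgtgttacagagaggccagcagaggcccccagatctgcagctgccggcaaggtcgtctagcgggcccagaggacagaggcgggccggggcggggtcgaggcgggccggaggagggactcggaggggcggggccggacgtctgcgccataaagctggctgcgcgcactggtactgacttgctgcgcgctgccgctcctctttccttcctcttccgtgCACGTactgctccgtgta
Aldoa (chr1:190836728-190837027, minus strand): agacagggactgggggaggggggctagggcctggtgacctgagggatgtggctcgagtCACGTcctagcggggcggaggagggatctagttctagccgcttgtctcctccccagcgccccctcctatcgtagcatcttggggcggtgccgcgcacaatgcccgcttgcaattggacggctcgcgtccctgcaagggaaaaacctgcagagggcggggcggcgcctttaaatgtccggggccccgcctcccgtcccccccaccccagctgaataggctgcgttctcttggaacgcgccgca
Eno1 (chr5:166003111-166003410, plus strand): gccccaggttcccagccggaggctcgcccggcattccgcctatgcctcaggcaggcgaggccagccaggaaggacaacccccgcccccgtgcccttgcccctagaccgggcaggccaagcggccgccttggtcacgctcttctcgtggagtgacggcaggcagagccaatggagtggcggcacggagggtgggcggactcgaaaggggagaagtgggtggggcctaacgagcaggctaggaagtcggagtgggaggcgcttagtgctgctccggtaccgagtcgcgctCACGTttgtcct
Ldha (chr1:106507842-106508141, plus strand): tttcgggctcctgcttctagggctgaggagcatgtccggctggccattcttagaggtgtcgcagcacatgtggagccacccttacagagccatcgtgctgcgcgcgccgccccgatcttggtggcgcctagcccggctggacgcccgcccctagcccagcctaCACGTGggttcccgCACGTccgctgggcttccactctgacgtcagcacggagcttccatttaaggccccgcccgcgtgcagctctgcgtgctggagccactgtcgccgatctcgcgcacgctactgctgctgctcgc
The Ldha window holds 3 matches on the 2 strands, 2 of which form 1 palindrome, and each of the other printed windows holds 1 match. The table had 11 windows for 7 of the 8 measured genes, all except Pgk1, and 5 windows, of 5 genes, held a match (45.5%). Aldoa had 3 windows and Eno1 had 2, and the printed window of each is the only one of that gene that held a match, while Gpi and Ldha had 1 window each. Of all 33469 windows of the same length, 6444 held one (19.3%). Hk1, the fifth gene, had a match in 1 of 2 windows and did not pass the test in either comparison below, and the windows of Hk2 and Pfkl had none. A match describes letters in a window and is not a measured binding site.

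Signals below are in the arrays' linear intensity units. A change is the difference of group means of log2(signal + 65.3), given ± SE, and adjusted p-values are two-sided, come from limma and cover all tested probe sets. A probe set passed the test at an adjusted p under 0.05. Because different probe sets differ in brightness for the same amount of RNA, levels are compared between groups and never between probe sets. Each array had been scaled to nearly the same mean, with array medians of 237 to 303 in LCM 20, 271 to 321 in LCM 800 and 261 to 269 in iron, and precision is limited by how few arrays there are. Whole profiles correlated at r of 0.857 to 0.893 among LCM 20 arrays, 0.718 to 0.937 among LCM 800 arrays and 0.873 to 0.984 among iron arrays. The LCM 800 arrays fell into arrays 1 to 3, with r of 0.893 to 0.930 among them, and arrays 4 and 5, with r of 0.937, while r between these sets was 0.718 to 0.812. Where leaving out either set changed the call of a glycolytic gene, the value without it is given beside the result.

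Enolase 1 (Eno1) and glucose-6-phosphate isomerase (Gpi) were far lower in both microdissected groups than in iron glomeruli, and Aldoa was lower to a smaller extent. In LCM 800 against iron, 4 of 9 tested probe sets passed as lower (Gpi, Aldoa, Eno1 and Ldha) and 1 as higher (Hk2). Of all tested probe sets, 20.1% passed as lower and 31.8% as higher in that comparison. In LCM 20 against iron, 3 of 9 passed as lower (Gpi, Aldoa and Eno1) and 1 as higher (a Pgk1 probe set), beside 19.2% lower and 26.2% higher of all. The median change of the 9 probe sets was -0.57 for LCM 20 and -0.32 for LCM 800, where the medians of all tested probe sets were 0.17 and 0.22. Both comparisons use the same iron arrays. In bulk samples, fewer cells of a type and less RNA per cell cannot be told apart.

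**Figure D1:**
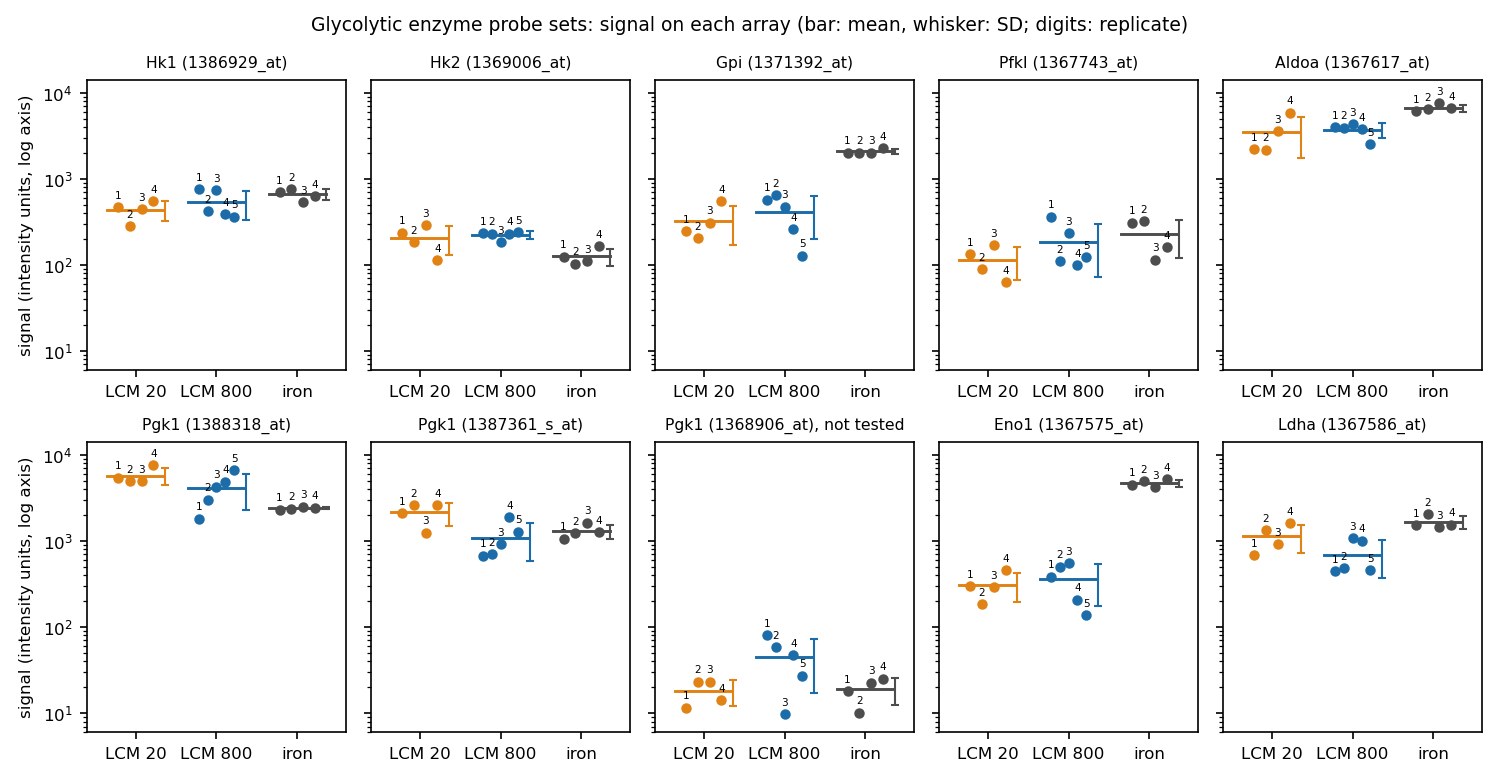
Signal in intensity units on a log axis for each glycolytic probe set on every array of the LCM 20 (n = 4), LCM 800 (n = 5) and iron (n = 4) groups; each dot is 1 array with its replicate number, the horizontal bar is the group mean and the whisker is ± SD. For Eno1 the microdissected arrays lie between 139 and 554 and the iron arrays between 4214 and 5192, while the Pgk1 probe set 1388318_at is higher on every LCM 20 array than on any iron array.

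Hexokinases take the first step. Hk1, the broadly expressed hexokinase (probe set 1386929_at), had signals of 468, 281, 440 and 551 in LCM 20, of 751, 423, 742, 385 and 362 in LCM 800 and of 695, 763, 538 and 632 in iron. The groups overlapped, and LCM 800 arrays 1 and 3 were as high as the iron arrays. The change was -0.55 ± 0.26 in LCM 20 (adjusted p = 0.0907, limma) and -0.32 ± 0.24 in LCM 800 (adjusted p = 0.275), and neither passed. Leaving out LCM 800 arrays 1 to 3, an alternative chosen after seeing the data, gave -0.71 and an adjusted p of 0.0334 for Hk1 in LCM 800. Leaving out arrays 4 and 5 instead gave -0.066 (adjusted p = 0.835).

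Hk2, the inducible hexokinase that can sit on mitochondria (1369006_at), had signals of 237, 184, 289 and 113 in LCM 20, of 235, 231, 183, 231 and 239 in LCM 800 and of 124, 103, 110 and 165 in iron. All LCM 800 arrays lay above all iron arrays, and LCM 20 array 4 lay within the iron range. Hk2 rose in LCM 800 by 0.60 ± 0.21 (adjusted p = 0.0253, limma), with a mean signal 1.78 times that of iron. In LCM 20 the change was 0.47 ± 0.22 and did not pass (adjusted p = 0.0972). The call in LCM 800 was lost without iron array 1 (adjusted p = 0.0556), iron array 2 (0.0761) or iron array 3 (0.0579), and also without LCM 800 arrays 4 and 5 (0.0690) or without arrays 1 to 3 (0.0684). Without LCM 20 array 4, the LCM 20 change of Hk2 was 0.65 with an adjusted p of 0.0184.

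Within each array the log2 difference between Hk1 and Hk2 can be compared between groups. The change of Hk1 minus the change of Hk2 was -1.02 in LCM 20 and -0.93 in LCM 800 against iron. In exact two-sided permutation tests the p-values were 0.0857 and 0.0397, or 0.114 and 0.0794 after adjustment over 4 such tests, so neither passed.

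Gpi turns glucose 6-phosphate into fructose 6-phosphate. Its probe set (1371392_at) had signals of 244, 204, 308 and 546 in LCM 20, of 571, 641, 474, 262 and 128 in LCM 800 and of 2011, 2015, 2015 and 2270 in iron. Every microdissected array lay below every iron array. The mean was 326 ± 153 in LCM 20 (SD, n = 4), 415 ± 215 in LCM 800 (n = 5) and 2078 ± 129 in iron (n = 4). Gpi fell by 2.53 ± 0.35 on the log2 scale in LCM 20 (adjusted p = 5.04e-05, limma), with a mean signal 6.38-fold lower. In LCM 800 it fell by 2.30 ± 0.34 (adjusted p = 5.17e-05), with a mean signal 5.0-fold lower. LCM 800 arrays 4 and 5 were the lowest of their group, and the change of Gpi in LCM 800 was -1.78 without them and -3.09 without arrays 1 to 3, both past the test.

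Pfkl, the liver-type phosphofructokinase (1367743_at), had signals of 133, 89.6, 170 and 62.8 in LCM 20, of 364, 110, 232, 99.95 and 124 in LCM 800 and of 309, 321, 115 and 159 in iron. The groups overlapped widely. The change was -0.66 ± 0.34 in LCM 20 (adjusted p = 0.118, limma) and -0.24 ± 0.32 in LCM 800 (adjusted p = 0.541). The Pfkl change in LCM 800 turned to 0.028 without arrays 4 and 5 of that group, so no direction can be given.

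Aldoa, the aldolase that splits fructose 1,6-bisphosphate (1367617_at), had signals of 2218, 2178, 3541 and 5837 in LCM 20, of 3953, 3926, 4326, 3751 and 2515 in LCM 800 and of 6068, 6407, 7492 and 6537 in iron. All microdissected arrays lay below the iron arrays, with LCM 20 array 4 close to the lowest of them. Aldoa fell by 1.05 ± 0.29 in LCM 20 (adjusted p = 0.00886, limma), 1.92-fold lower in mean signal, and by 0.85 ± 0.28 in LCM 800 (adjusted p = 0.0178), 1.79-fold lower. The LCM 800 call of Aldoa was lost with quantile normalization (-0.68, adjusted p = 0.0666) and without LCM 800 arrays 4 and 5 (-0.69, adjusted p = 0.0575).

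Gapdh carries out the oxidising step after aldolase and is often used as a reference gene. The only probe set for it outside the controls (1367557_s_at) is annotated with both Gapdhl10 and Gapdh, so its signal cannot be assigned to 1 gene. It had signals of 357, 43.4, 292 and 1983 in LCM 20, of 539, 583, 500 and 487 and, on array 5, 226 in LCM 800, and of 5675, 5846, 5181 and 5709 in iron. All microdissected arrays lay below the iron arrays, and LCM 20 arrays 2 and 4 were far apart. The change of this probe set was -3.73 ± 0.58 in LCM 20 (adjusted p = 0.000123, limma) and -3.46 ± 0.55 in LCM 800 (adjusted p = 0.000106).

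The array's own Gapdh control probe sets, which lie in the 5′ part, the middle and the 3′ part of the transcript, are no members but bear on this gene. Near the 3′ end they gave 221 to 3799 in LCM 20, 409 to 1358 in LCM 800 and 5262 to 6321 in iron. In the 5′ part they gave 268 to 430 in LCM 20, 230 to 428 in LCM 800 and 3299 to 4921 in iron. Thus the Gapdh controls of both microdissected groups lay below iron in both parts, without overlap.

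Pgk1, phosphoglycerate kinase, forms the first ATP of the pathway and had 3 probe sets. The brightest (1388318_at) had signals of 5427, 4924, 4960 and 7570 in LCM 20, of 1814, 3010, 4259, 4868 and 6652 in LCM 800 and of 2313, 2363, 2497 and 2432 in iron. Every LCM 20 array lay above every iron array, whereas LCM 800 array 1 lay below them and the other LCM 800 arrays above. This probe set rose by 1.21 ± 0.32 in LCM 20 (adjusted p = 0.00625, limma), with a mean signal 2.38 times that of iron, and its change in LCM 800 was 0.64 ± 0.30 (adjusted p = 0.0878). Pgk1 1388318_at without LCM 800 array 1 reached 0.89 in LCM 800 and passed (adjusted p = 0.00852), and without arrays 1 to 3 it reached 1.22 (adjusted p = 0.00174), whereas without arrays 4 and 5 it was 0.25 and did not pass (adjusted p = 0.443). It also passed in LCM 800 with quantile normalization (adjusted p = 0.0332) and with array weights (0.0158).

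The second Pgk1 probe set (1387361_s_at) had signals of 2120, 2614, 1251 and 2589 in LCM 20, of 677, 706, 919, 1894 and 1289 in LCM 800 and of 1061, 1230, 1632 and 1263 in iron. Its groups overlapped, and LCM 800 arrays 1 to 3 were the lowest of all arrays. The change was 0.66 ± 0.31 in LCM 20 (adjusted p = 0.0978, limma) and -0.31 ± 0.30 in LCM 800 (adjusted p = 0.391), so it passed in neither comparison. For Pgk1 1387361_s_at in LCM 800 the change without arrays 4 and 5 was -0.71 (adjusted p = 0.0316), and without arrays 1 to 3 it was 0.27. Without LCM 20 array 3 the LCM 20 change of this probe set was 0.89 (adjusted p = 0.0359).

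The 2 bright Pgk1 probe sets therefore gave different calls for 1 gene. The change of 1388318_at exceeded that of 1387361_s_at by 0.55 in LCM 20 and by 0.95 in LCM 800. In exact two-sided permutation tests the p-values were 0.114 and 0.0238, which became 0.114 and 0.0794 after adjustment over 4 tests. With quantile normalization the difference in LCM 800 was 1.14 and passed this test (adjusted p = 0.0317). A separate limma fit averaged the tested probe sets of each gene and adjusted over genes instead of probe sets. There Pgk1 changed by 0.93 in LCM 20 (adjusted p = 0.0177) and 0.16 in LCM 800 (adjusted p = 0.647). The third Pgk1 probe set (1368906_at) was dim, with 11.6 to 23.2 in LCM 20, 9.85 to 80.6 in LCM 800 and 10.1 to 25.3 in iron, and was not tested.

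Eno1, the enolase that forms phosphoenolpyruvate, had the largest change of the 9 tested glycolytic probe sets (1367575_at). Its signals were 297, 184, 290 and 460 in LCM 20, 385, 505, 554, 209 and 139 in LCM 800 and 4491, 4911, 4214 and 5192 in iron. No microdissected array came near the iron range. The mean was 308 ± 114 in LCM 20 (SD, n = 4), 358 ± 181 in LCM 800 (n = 5) and 4702 ± 434 in iron (n = 4). Eno1 fell by 3.72 ± 0.32 on the log2 scale in LCM 20 (adjusted p = 8.50e-07, limma), a mean signal 15.3-fold lower, and by 3.61 ± 0.31 in LCM 800 (adjusted p = 4.46e-07), 13.1-fold lower. The Eno1 change in LCM 800 was -3.13 without arrays 4 and 5, and without arrays 1 to 3 it was -4.33, both past the test.

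Pkm, pyruvate kinase of muscle and most other tissues, forms pyruvate and a further ATP. Its probe set (1369931_at) is also annotated with a Pkm pseudogene, Pkm-ps20, so its signal cannot be assigned to Pkm alone. Signals were 368, 277, 494 and 1023 in LCM 20, 658, 712, 567, 536 and 327 in LCM 800 and 1080, 1229, 1154 and 1131 in iron. All microdissected arrays lay below the iron arrays, LCM 20 array 4 narrowly. The change was -1.15 ± 0.30 in LCM 20 (adjusted p = 0.00653, limma) and -0.99 ± 0.29 in LCM 800 (adjusted p = 0.00931).

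Ldha, the lactate dehydrogenase subunit that favours lactate formation (1367586_at), had signals of 682, 1327, 923 and 1604 in LCM 20, of 447, 483, 1086, 1007 and 459 in LCM 800 and of 1535, 2059, 1457 and 1549 in iron. All LCM 800 arrays lay below the iron arrays, and LCM 20 array 4 lay among them. Ldha fell by 1.26 ± 0.30 in LCM 800 (adjusted p = 0.00265, limma), with a mean signal 2.37-fold lower. In LCM 20 its change was -0.57 ± 0.32 and did not pass (adjusted p = 0.150).

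**Figure D2:**
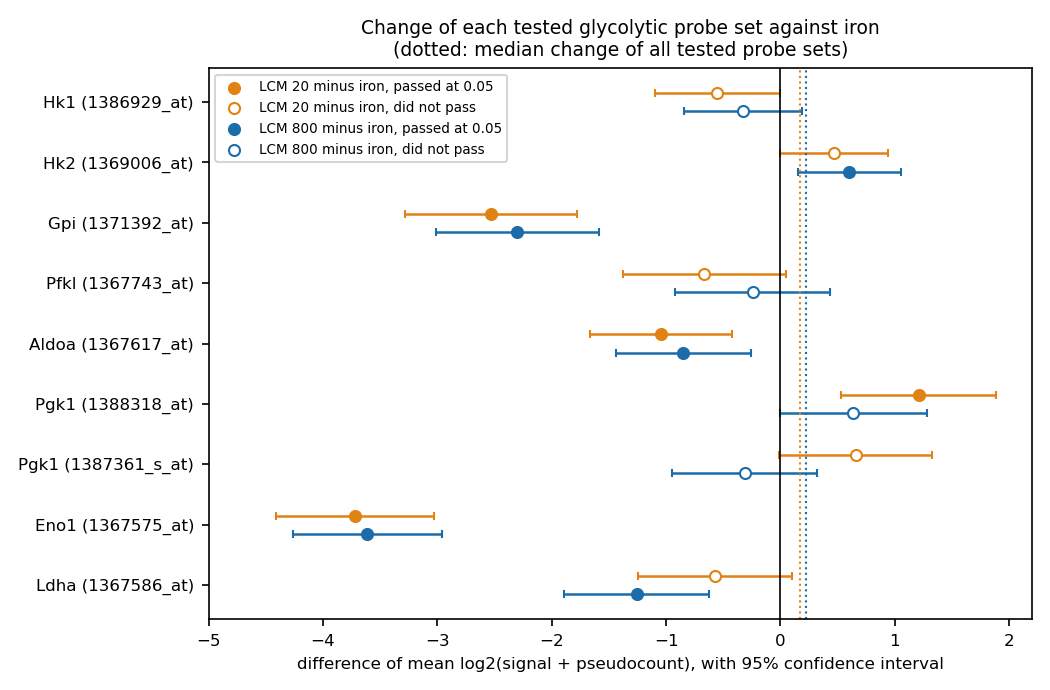
Change of the 9 tested glycolytic probe sets on the log2 scale with 95% confidence intervals, LCM 20 minus iron in orange and LCM 800 minus iron in blue; filled points passed at an adjusted p under 0.05 and open points did not, and dotted lines are the medians of all tested probe sets (0.17 and 0.22). Gpi and Eno1 lie far to the left in both comparisons, while Hk2 and both Pgk1 probe sets lie near or to the right of 0, except Pgk1 1387361_s_at in LCM 800 at -0.31.

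Groups did not overlap for 3 probe sets lower and 1 higher in LCM 20 against iron, and for 4 lower and 1 higher in LCM 800 against iron, the same ones that passed the test. Of all tested probe sets, 18.2% lay lower and 25.6% higher without overlap in LCM 20, and 16.1% lower and 26.7% higher in LCM 800.

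Between the microdissected groups, none of the 9 probe sets passed in LCM 20 against LCM 800 (limma), and 0.153% of all tested probe sets did. At an unadjusted p under 0.05 there were 2, Pgk1 1387361_s_at with a change of 0.97 ± 0.30 (adjusted p = 0.137) and Ldha with 0.69 ± 0.30 (adjusted p = 0.255). The 2 groups overlapped for all 9 probe sets, whereas 3.84% of all tested probe sets had groups apart. The 95% confidence interval of the difference, LCM 20 minus LCM 800, was -0.76 to 0.54 for Eno1 and -0.94 to 0.49 for Gpi. When LCM 800 arrays 4 and 5 were left out, 3 calls appeared: Gpi lower in LCM 20 (-0.75, adjusted p = 0.0434) and both Pgk1 probe sets higher, 1387361_s_at by 1.36 (adjusted p = 0.00223) and 1388318_at by 0.96 (adjusted p = 0.0173). Leaving out LCM 800 array 4 alone gave 1 call, Pgk1 1387361_s_at at 1.19 (adjusted p = 0.0312).

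Across arrays the members did not move as 1 block. Over all 13 arrays, which include the difference between groups, Gpi and Eno1 correlated at r = 0.977, Gpi and Aldoa at 0.899 and Eno1 and Aldoa at 0.847. Over the 9 microdissected arrays alone these values were 0.929, 0.789 and 0.715. Ldha correlated with Eno1 at 0.650 over 13 arrays and at 0.087 over the 9. The Pgk1 probe set 1388318_at ran against Gpi, at -0.764 over 13 arrays and -0.544 over the 9, and the 2 bright Pgk1 probe sets correlated with each other at 0.633 and 0.766. The genes outside the set most like Eno1 over 13 arrays were Apoe (r = 0.991), Fxyd2 (0.986) and Cox4i1 (0.986), and those most like Hk1 were Cenpx (0.934), Tmem9 (0.927) and Mark2 (0.919). These values are descriptions, since the points share groups and isolation method.

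Other glycolytic genes, each by its brightest probe set with 1 symbol, moved in both directions. Of 22 listed genes 14 were tested: 2 fell and 4 rose in LCM 20, and 2 fell and 7 rose in LCM 800, beside 18.5% of all genes lower and 27% higher in LCM 20 and 19.8% lower and 32.3% higher in LCM 800. The median change was 0.39 in LCM 20 and 0.47 in LCM 800, against 0.18 and 0.22 over all genes. With LCM 800 arrays 1 to 3 left out, the rises in LCM 800 numbered 4, and without iron array 3 the rises in LCM 20 numbered 2.

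The 2 that fell were Tpi1 and Ldhb. Tpi1, triose-phosphate isomerase, averaged 1016 in LCM 20, 1341 in LCM 800 and 2445 in iron, a change of -1.23 ± 0.22 (adjusted p = 0.000311, limma) and -0.84 ± 0.20 (adjusted p = 0.00294). Ldhb, the lactate dehydrogenase subunit of oxidative tissues, changed by -0.86 (adjusted p = 0.00359) and -0.90 (adjusted p = 0.00156). Among the rises, Pgam1, phosphoglycerate mutase, which acts just before enolase, averaged 8060 in LCM 20, 7771 in LCM 800 and 3980 in iron, a change of 0.99 ± 0.24 (adjusted p = 0.00386) and 0.91 ± 0.23 (adjusted p = 0.00409). Pfkp, the platelet-type phosphofructokinase, averaged 447, 713 and 244 in the same order of groups and changed by 0.73 in LCM 20 (adjusted p = 0.0213) and 1.34 in LCM 800 (adjusted p = 0.000193). The Pfkp call in LCM 20 was lost without iron array 1 (adjusted p = 0.0638), iron array 3 (0.0573) or LCM 20 array 4 (0.0641).

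Pfkm, the muscle-type phosphofructokinase, rose in LCM 800 by 0.97 (adjusted p = 0.00168, limma), and its change in LCM 20 was 0.40 (adjusted p = 0.161). Eno2, the neuronal enolase, averaged 195 in LCM 20, 282 in LCM 800 and 97.7 in iron and rose by 0.67 in LCM 20 (adjusted p = 0.0144) and 1.08 in LCM 800 (adjusted p = 0.000332).

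Transporters of glucose, lactate and pyruvate and the enzymes that decide the fate of pyruvate were mostly lower. Of 24 listed genes 22 were tested, of which 12 fell and 2 rose in LCM 20, and 13 fell and 3 rose in LCM 800. Of all genes, 18.5% fell and 27% rose in LCM 20, and 19.8% fell and 32.3% rose in LCM 800. The median change of the listed genes was -0.90 in LCM 20 and -1.001 in LCM 800, against 0.18 and 0.22 over all genes. The largest fall on this list was that of Slc5a2, the sodium-glucose cotransporter of the early proximal tubule, which averaged 77.5 in LCM 20, 136 in LCM 800 and 2475 in iron (-4.10 ± 0.33, adjusted p = 5.09e-07, and -3.72 ± 0.32, adjusted p = 4.33e-07, limma). Bsg, the chaperone of lactate transporters, changed by -3.52 and -3.55, and Slc16a1, the lactate transporter MCT1, by -2.35 (adjusted p = 5.63e-06) and -2.27 (adjusted p = 3.42e-06). Mpc1, a subunit of the mitochondrial pyruvate carrier, changed by -1.61 (adjusted p = 0.00177) and -3.12 (adjusted p = 3.63e-06), and Pdk2, a kinase that inhibits pyruvate dehydrogenase, by -2.54 (adjusted p = 0.000597) and -1.37 (adjusted p = 0.0199). The Pdk2 call in LCM 800 was lost without iron array 1 (adjusted p = 0.0533), without LCM 800 arrays 4 and 5 (0.0832) and with no pseudocount (0.0825).

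The rises in this group were few. Pdk1, a pyruvate dehydrogenase kinase induced by hypoxia, rose by 1.12 in LCM 20 (adjusted p = 0.0125, limma) and 1.42 in LCM 800 (adjusted p = 0.00158). Slc2a3, the high-affinity glucose transporter GLUT3, rose by 1.004 (adjusted p = 0.00165) and 0.99 (adjusted p = 0.00103), but its second probe set (1387707_at) passed in neither comparison, with changes of 0.38 and 0.38. Slc16a3, the lactate exporter MCT4, rose by 0.98 in LCM 800 (adjusted p = 0.0166), a call lost without LCM 800 arrays 1 to 3 (0.53, adjusted p = 0.158) or without iron array 4 (adjusted p = 0.0556). Slc2a1, the glucose transporter GLUT1, changed by -0.70 in LCM 20 (adjusted p = 0.0435) and -0.63 in LCM 800 (adjusted p = 0.0467), and both calls were lost without iron array 1, 2 or 4, with adjusted p-values of 0.0951 to 0.138. With the replicate block both Slc2a1 calls were lost as well (adjusted p = 0.0703 in LCM 20 and 0.0658 in LCM 800). The Slc2a1 call in LCM 800 was also lost without LCM 800 arrays 4 and 5 (adjusted p = 0.0607), without arrays 1 to 3 (0.180) and without LCM 800 array 1, 3 or 4 alone (0.0765 to 0.0878), and that in LCM 20 without LCM 20 array 2 (0.137) or 4 (0.0926).

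**Figure D3:**
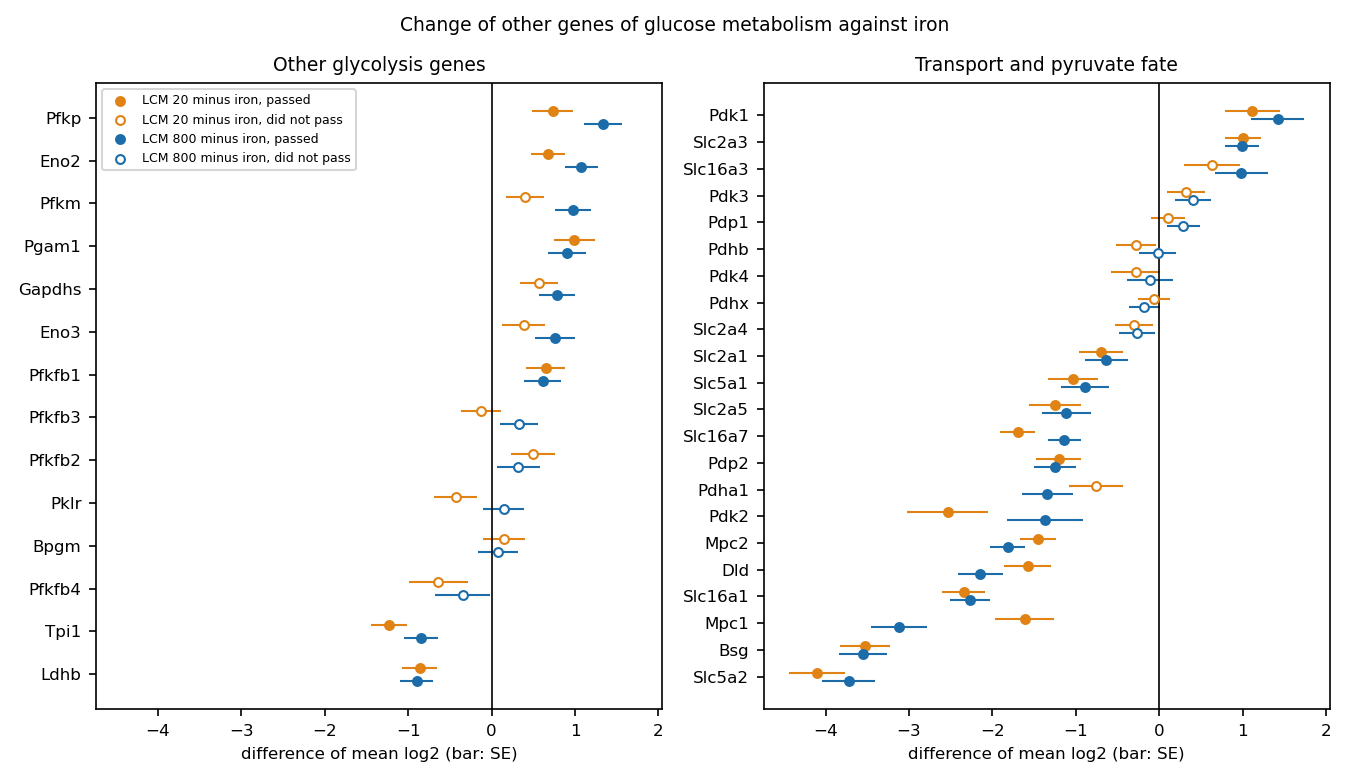
Change on the log2 scale, ± SE, of other glycolysis genes (left) and of transport and pyruvate genes (right), LCM 20 minus iron in orange and LCM 800 minus iron in blue; filled points passed at an adjusted p under 0.05. On the left Pfkp and Pgam1 lie right of 0 and Tpi1 and Ldhb left of it, and on the right most genes lie left of 0, down to Slc5a2 at -4.10 and -3.72.

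Genes of the branches that leave glucose 6-phosphate, for pentoses, glycogen and sorbitol, passed in both directions. Of 16 tested, 3 fell and 4 rose in LCM 20, and 3 fell and 4 rose in LCM 800. These counts lie near the shares of all genes, which were 18.5% lower and 27% higher in LCM 20 and 19.8% lower and 32.3% higher in LCM 800. Without LCM 800 arrays 1 to 3 the falls in LCM 800 numbered 6. Pgm2, a phosphoglucomutase that acts mainly on pentose phosphates, rose by 2.05 in LCM 20 (adjusted p = 0.000155, limma) and 2.03 in LCM 800 (adjusted p = 8.02e-05). Gbe1, the glycogen branching enzyme, rose by 1.80 (adjusted p = 0.000424) and 1.45 (adjusted p = 0.00124). H6pd, the glucose 6-phosphate dehydrogenase of the endoplasmic reticulum, changed by -1.32 (adjusted p = 0.00280) and -1.35 (adjusted p = 0.00134). Sord, sorbitol dehydrogenase, fell by 1.51 in LCM 20 (adjusted p = 0.00115), and Taldo1, transaldolase of the pentose phosphate pathway, by 1.22 in LCM 800 (adjusted p = 0.000500). Sord in LCM 800 changed by -0.86 (adjusted p = 0.0234), a call lost under several alternatives, such as without LCM 800 arrays 4 and 5 (0.139). A second Sord probe set (1369635_at) changed by -3.15 in LCM 20 (adjusted p = 1.38e-06) and -2.54 in LCM 800 (adjusted p = 4.28e-06).

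Glucose production shares the middle steps with glycolysis and had 4 tested genes, of which 2 fell in LCM 20, and 2 fell and 1 rose in LCM 800. Of all genes, 18.5% fell and 27% rose in LCM 20, and 19.8% fell and 32.3% rose in LCM 800. Fbp1, the fructose bisphosphatase that opposes phosphofructokinase, averaged 1434 in LCM 20, 1218 in LCM 800 and 6229 in iron (-2.14, adjusted p = 0.000105, and -2.27, adjusted p = 2.99e-05, limma). Pc, pyruvate carboxylase, changed by -1.35 (adjusted p = 0.00159) and -1.58 (adjusted p = 0.000256). Pck1, phosphoenolpyruvate carboxykinase, rose by 1.07 in LCM 800 (adjusted p = 0.00559), and its change in LCM 20 was 0.55 (adjusted p = 0.143). Without LCM 800 arrays 1 to 3 the Pck1 call was lost (0.62, adjusted p = 0.125). Fbp1 and Slc5a2 also stand among the proximal tubule markers below.

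Hypoxia-inducible factor genes and known targets passed in both directions, where 18.5% of all genes fell and 27% rose in LCM 20, and 19.8% fell and 32.3% rose in LCM 800. Slc2a1 counts in this list too. Of 14 tested, 4 fell and 3 rose in LCM 20, and 4 fell and 3 rose in LCM 800, and over the alternatives the falls ranged over 2 to 5 and 3 to 6 and the rises over 2 to 6 and 1 to 5. Hif1a, the oxygen-regulated subunit, had a change of -0.90 in LCM 20 (adjusted p = 0.224, limma) and -0.79 in LCM 800 (adjusted p = 0.251), with LCM 800 signals spread over 204 to 3456; without LCM 800 arrays 1 to 3 the change in LCM 800 was 0.77 (adjusted p = 0.0879), and without arrays 4 and 5 it was -1.83 and passed (adjusted p = 0.000357). Hif1a in LCM 800 also passed as lower without LCM 800 array 4 (-1.27, adjusted p = 0.0328) and once arrays were weighted (-1.10, adjusted p = 0.00777), so no direction can be given. In LCM 20 it passed as lower when only the 2 groups compared were fitted (adjusted p = 0.0193). Epas1, which encodes HIF-2α, rose by 1.66 in LCM 20 (adjusted p = 0.00831), while its second probe set (1369703_at) had a change of -0.72 (adjusted p = 0.0748). Vegfa, the podocyte growth factor and hypoxia target, fell by 1.60 in LCM 20 (adjusted p = 1.87e-05) and by 1.03 in LCM 800 (adjusted p = 0.000413). Ndrg1, a stress and hypoxia target, fell by 1.51 in LCM 800 (adjusted p = 0.000323) and Bhlhe40, a clock and hypoxia target, by 1.17 in LCM 20 (adjusted p = 0.00158). Bnip3, a mitophagy gene, fell by 1.14 in LCM 800 (adjusted p = 0.00677), and Egln2, an oxygen-sensing hydroxylase, rose there by 1.09 (adjusted p = 0.00998); without LCM 800 arrays 1 to 3, neither passed (adjusted p = 0.272 and 0.403). Ndrg1 in LCM 20 changed by -0.78 (adjusted p = 0.0362), a call lost without iron array 1, 2 or 4 or LCM 20 array 1, 2 or 3 and with quantile normalization or equal medians. No gene of the 5 lists passed in LCM 20 against LCM 800, beside 0.136% of all genes.

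Markers of other kidney cells moved with the same comparisons, in which 18.5% of all genes fell in LCM 20 and 19.8% in LCM 800. All 12 tested proximal tubule markers fell in both microdissected groups, with median changes of -3.14 in LCM 20 and -3.12 in LCM 800. Their summed signal was 9052 to 26035 in LCM 20, 13235 to 21209 in LCM 800 and 63617 to 117953 in iron, where array 3 was the lowest. None of these markers had a group mean of 0. On iron array 3 Eno1 was the lowest of its group (4214) and Aldoa the highest (7492). Gpi, at 2015, lay among the other iron arrays there. The part of tubule RNA in the glycolytic changes was not tested.

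Glomerular markers were present in every group. Their calls stand beside 18.5% of all genes lower and 27% higher in LCM 20, and 19.8% lower and 32.3% higher in LCM 800. Of 6 tested podocyte markers, 2 fell and 2 rose in LCM 20 and 3 fell and 2 rose in LCM 800, and their summed signal was 25752 to 41163 in LCM 20, 29612 to 41719 in LCM 800 and 17564 to 41187 in iron, where array 3 was the highest. Nphs1, which encodes nephrin of the slit diaphragm, rose by 1.30 (adjusted p = 0.0123, limma) and 1.19 (adjusted p = 0.0126), and Actn4, an actin crosslinker, changed by -1.29 (adjusted p = 0.00525) and -1.14 (adjusted p = 0.00660). Both were picked as examples after their values were seen. Of 5 mesangial markers, 1 rose in LCM 20 and 3 rose in LCM 800, with none lower, and their summed signal was 1003 to 2095 in LCM 20, 1549 to 2849 in LCM 800 and 492 to 2512 in iron. Of 5 endothelial markers, 1 fell and 2 rose in each microdissected group. The endothelial sum was 11326 to 17077 in LCM 20, 8265 to 12024 in LCM 800 and 2942 to 7943 in iron, so that every microdissected array lay above every iron array. The part of these cells in the glycolytic changes was not tested.

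The same shares of all genes apply to the next markers, 18.5% lower and 27% higher in LCM 20 and 19.8% lower and 32.3% higher in LCM 800. Of 7 distal tubule and collecting duct markers, 5 fell in LCM 20, and 4 fell and 1 rose in LCM 800, and their summed signal was 4200 to 11137 in LCM 20, 12293 to 19603 in LCM 800 and 17049 to 37057 in iron. Of 7 leukocyte markers, 1 fell and 3 rose in LCM 20 and 1 fell and 4 rose in LCM 800, while their summed signal was 2545 to 5739 in LCM 20, 3567 to 6396 in LCM 800 and 5736 to 10256 in iron. Of 3 erythrocyte markers, 1 fell and 1 rose in each, with sums of 596 to 3786 in LCM 20, 799 to 2559 in LCM 800 and 823 to 2309 in iron. No marker had a group mean of 0, and the means below the pseudocount were those of Alas2, an enzyme of red cell haem synthesis, and Cd3d, a T cell gene, both in iron.

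The control probe sets placed along 3 transcripts also moved with the groups. β-actin, which is not among the glycolytic genes, averaged 258 in LCM 20, 137 in LCM 800 and 3604 in iron in its 5′ part. In the middle it averaged 299, 345 and 7176 in the same order. At each position every microdissected array lay below every iron array. On the log2 scale the 5′ part changed by -3.48 in LCM 20 and -4.16 in LCM 800, and the middle by -4.27 and -4.105. The 3′ part changed by -2.23 and -1.94, and Eno1 by -3.72 and -3.61. The 3′ minus 5′ difference of log2 signal for β-actin averaged 1.80 ± 0.45 in LCM 20 (SD, n = 4), 2.77 ± 1.03 in LCM 800 (n = 5) and 0.55 ± 0.02 in iron (n = 4). It was higher on every microdissected array than on any iron array. The ranges were 1.33 to 2.29 in LCM 20, 1.71 to 4.01 in LCM 800 and 0.53 to 0.57 in iron. In exact two-sided permutation tests against iron the p-values were 0.0286, the smallest that 4 against 4 arrays can give, and 0.0238, both 0.0643 after adjustment over 9 tests. For Gapdh the difference was 1.14 ± 1.38 in LCM 20, 1.22 ± 0.49 in LCM 800 and 0.52 ± 0.15 in iron, with exact p of 0.543 and 0.0159 (adjusted 0.611 and 0.0643). LCM 20 array 4 had a Gapdh difference of 3.06. In its group it had the highest Hk1, Gpi, Aldoa, Gapdh, Pgk1 1388318_at, Eno1, Pkm and Ldha signals and the lowest Hk2 and Pfkl signals. The hexokinase controls were dim, with group means of 17.5 to 97.3, and their difference was 0.44 ± 0.31 in LCM 20, 0.23 ± 0.33 in LCM 800 and 0.73 ± 0.14 in iron, with exact p of 0.229 and 0.0159 (adjusted 0.343 and 0.0643). No control comparison passed after adjustment, but groups this small limit how low an exact p-value can be. Where in the transcripts the glycolytic probe sets lie was not analysed here. The part of transcript position in the glycolytic changes was not tested.

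**Figure D4:**
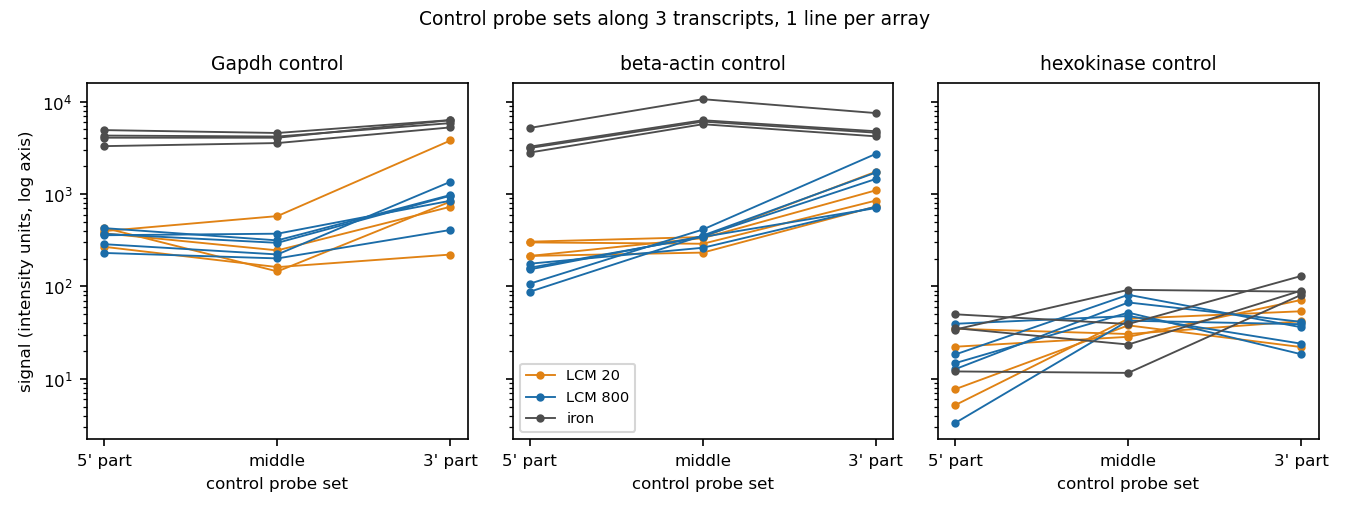
Signal in intensity units on a log axis of the control probe sets in the 5′ part, middle and 3′ part of the Gapdh, β-actin and hexokinase transcripts, with 1 line per array for LCM 20, LCM 800 and iron. The Gapdh lines of the iron arrays lie above all microdissected lines at each position, at 3299 to 4921 in the 5′ part against 268 to 430 in LCM 20 and 230 to 428 in LCM 800.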

How the data were processed

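Glomerular RNA of 13 rat samples was measured on Affymetrix Rat 230A arrays. The deposited values are linear intensity signals of 15923 probe sets, and the submitters' processing notes name MAS5; the trimmed mean of every array was close to 500.1, so no further scaling was applied. The MAS5 settings and scaling target are not given in the sources used here. Here a pseudocount of 65.29, the 20th percentile of all signals, was added before taking log2, which shrinks the changes of dim genes. The 57 control probe sets were left out, and so was the lowest 30% by mean log2, which left 11106 (mean log2 over 7.62).

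Tests across probe sets used limma 3.58.1 under R 4.3.3 (linear model with eBayes and an intensity trend, all 3 groups fitted together without covariates), with Benjamini-Hochberg adjustment over all probe sets at 0.05; the script was tested on simulated data. Single values were compared by exact permutation tests. Gene symbols came from the platform annotation, updated through gene identifiers for 12748 probe sets: 12783 had 1 symbol, 312 several and 2771 none. List genes were read from their brightest probe set with 1 symbol.

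The members and lists were chosen with earlier results of these data known. All members are named, along with, per list and comparison, the 4 largest changes past the test and the genes Tpi1, Pgam1, Pfkp, Slc2a1, Slc16a1 and Hif1a (a further gene of this rule is not reported here); Ldhb, Pdk1, Slc2a3, Slc16a3, Pck1, Nphs1 and Actn4 were added after their values were seen. The nearest genes by correlation were also to be given for Gapdh, which had no member probe set. Replicate numbers were not used to pair the samples in the main fit. Alternatives were other scalings, pseudocounts and filters, array weights, a replicate block and leaving out arrays.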

Additional observations from a re-analysis of the deposited data

Results flagged for a closer look

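Among 39 groups of 4 or 5 arrays examined for a single distant array, 3 had one, and chance flags about 1 in 20 groups. Aldoa on LCM 800 array 5 was low, at 11.33 on the log2 scale where the other arrays of the group lay at 11.90 to 12.10. Hk2 on LCM 800 array 3 was low, at 7.96 against 8.21 to 8.25 for the others. Gpi on iron array 4 was high, at 11.19, where the other 3 iron arrays all lay at 11.02.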

How the results depend on the processing

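The falls of Eno1 and Gpi in both microdissected groups against iron, of Ldha in LCM 800, of Aldoa in LCM 20 and the rise of Pgk1 1388318_at in LCM 20 kept their direction and passed the test under every alternative run. In all, 122 single values (probe sets, differences of changes and control differences) were each recomputed under 16 to 25 alternatives. Of the 2806 recomputed values, 2652 kept their direction and side of the threshold, 113 lost their call, 23 gained one and 18 changed sign, and causes were not tested. Leaving out each array in turn gave 3 to 3 probe sets lower and 1 to 2 higher in LCM 20 against iron, 4 to 4 lower and 0 to 2 higher in LCM 800 against iron, and 0 to 0 lower and 0 to 1 higher in LCM 20 against LCM 800. Higher calls in LCM 20 against iron numbered 2 without LCM 20 array 3 or 4; in LCM 800 against iron they numbered 0 without iron array 1, 2 or 3 and 2 without LCM 800 array 1. Array weights gave 5 lower and 3 higher in LCM 20 against iron, 2 higher in LCM 800 against iron and 1 higher in LCM 20 against LCM 800. A fit of only the 2 groups compared gave 2 higher in LCM 20 against iron. Among lower calls in LCM 800 against iron, Aldoa was lost with quantile normalization, with a fold of at least 2 and without LCM 800 arrays 4 and 5. Pgk1 1387361_s_at was gained as lower without those arrays, and Hk1 without LCM 800 arrays 1 to 3. Higher calls in LCM 800 against iron numbered 2 with quantile normalization, 0 with the lowest 60% left out (7 probe sets tested), 0 with a fold of at least 2 and 0 without LCM 800 arrays 4 and 5. Without those arrays LCM 20 against LCM 800 had 1 lower and 2 higher. Same-numbered samples correlated at -0.24 to 0.23 in their deviations from group means. With so few arrays per group, these values cannot settle whether a number marks a rat. With the replicate block, higher calls in LCM 800 against iron numbered 0 and all other counts of member calls stayed the same.

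Changes of sign all concerned values that had not passed as reported. Without LCM 800 arrays 1 to 3, LCM 20 against LCM 800 gave 0.042 for Aldoa 1367617_at, 0.61 for Eno1 1367575_at, 0.56 for Gpi 1371392_at, 0.16 for Hk1 1386929_at and -0.016 for Pgk1 1388318_at, and LCM 800 against iron gave 0.27 for Pgk1 1387361_s_at and 0.77 for Hif1a 1387076_at, which passed as lower without arrays 4 and 5 (-1.83). Without LCM 800 arrays 4 and 5, Pfkl 1367743_at in LCM 800 against iron was 0.028. Leaving out each array gave -0.34 to 0.067 for Eno1 1367575_at and -0.28 to 0.050 for Hk2 1369006_at in LCM 20 against LCM 800. The Gapdh control 3 prime minus 5 prime difference between LCM 20 and LCM 800 was 0.017 with 4 times the pseudocount and -0.73 to 0.36 over arrays left out, and that between LCM 20 and iron was -0.027 without LCM 20 array 4 and up to 1.07 with any other array left out. The median change of all probe sets moved with scaling, in LCM 800 against iron to 0.15 with quantile normalization and 0.11 with equal medians, against 0.22 as reported. Over all alternatives run, rises of other glycolysis genes numbered 2 to 5 in LCM 20 and 3 to 7 in LCM 800, falls of transport and pyruvate genes 8 to 14 and 9 to 14, rises of gluconeogenesis genes 0 to 1 and 0 to 2, falls of podocyte markers 1 to 3 and 2 to 3, rises of mesangial markers 0 to 2 and 1 to 4, and falls of proximal tubule markers 11 to 12 and 11 to 12.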
